A study of Mus musculus with 12 samples.

Results

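The genes described here mark microglia, the resident macrophages of the brain, either at rest or in disease. There are 37 symbols, chosen by name from the deposited count table, and they matched 38 of its 48795 rows because Itgam, the alpha chain of an integrin of myeloid cells, has a pair of gene models. By role, 12 are homeostatic genes of resting microglia, 20 are genes of the disease-associated state or of its ligands, 4 are carried by most myeloid cells, and Siglec1, or sialoadhesin, stands alone. RNA came from the piriform cortex, the olfactory cortex of the ventral forebrain, of 12 mice aged 12 months on a C57BL/6 background. In 6 of them 1 copy of Htt was the Q140 knock-in allele, which carries an expanded CAG repeat in the first exon and models Huntington's disease. The other group was 6 wild type mice, and each group held 3 females and 3 males. Each library is a separate animal, and animals are numbered from 1 to 6 within a genotype only to name them.

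Resting microglia sense purines through P2ry12 and P2ry13, neuronal fractalkine through Cx3cr1 and TGF-beta through Tgfbr1, and the transcription factor Sall1 helps to keep their identity. Near amyloid, dying cells or myelin debris, microglia can take on a disease-associated state in which Trem2, a lipid receptor, signals through its adaptor Tyrobp, homeostatic genes fall, and genes such as Cst7, Itgax, Clec7a, Lpl and Spp1 rise. Csf1r, the receptor for the growth factors Csf1 and Il34, keeps microglia alive.

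Libraries held 19587208 to 35198602 counts, and 17725 genes passed the expression filter. Of the 38 rows, 34 passed it. The others were Ccl3, Ccl4, Cst7 and the Itgam model ENSMUSG00000108596, and they are given below as reads. The tissue carried its neuronal markers, among them Snap25 at 3077 ± 171.3 CPM (counts scaled to a common library size after TMM; SD, n = 6) in wild types, and its microglial markers, among them P2ry12 at 38.1 ± 5.92 CPM. Wild type 3 had by far the lowest level of the 15 meningeal markers, genes of the fibroblasts and membranes around the brain, with a summed level of 158.6 CPM against 707.1 to 2228 CPM in the other wild types and 1071 to 2660 CPM in Q140 animals.

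In Q140 cortex 7 of the 34 tested members rose and none fell. The 7 were Siglec1, Itgax, Csf1, Cd9, Tyrobp, Tmem119 and Sall1, with increases from 1.16-fold for Sall1 to 2.7-fold for Siglec1. Among all 17725 genes, 4.5% rose and 6.69% fell by the same rule, an adjusted p below 0.05 in edgeR's quasi-likelihood test with sex as a covariate. By sign 30 members had a positive log2 fold change, where 51.3% of all genes did, and 12 of 34 had an unadjusted p below 0.05, where 26.7% of all genes did. The 7 calls rest on the animals compared. None passed in a fit with the prefix of the animals' names as a covariate or their number as a block. Over all genes 134 and 1 passed in those fits. When 1 animal was left out 2 to 11 members passed. Calls over all genes then ran from 1139 to 2504, against 1982 with all animals. The median log2 fold change was 0.15 over the members and 0.0045 over all genes. In bulk tissue, more cells of a type and more RNA per cell cannot be told apart.

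**Figure D1:**
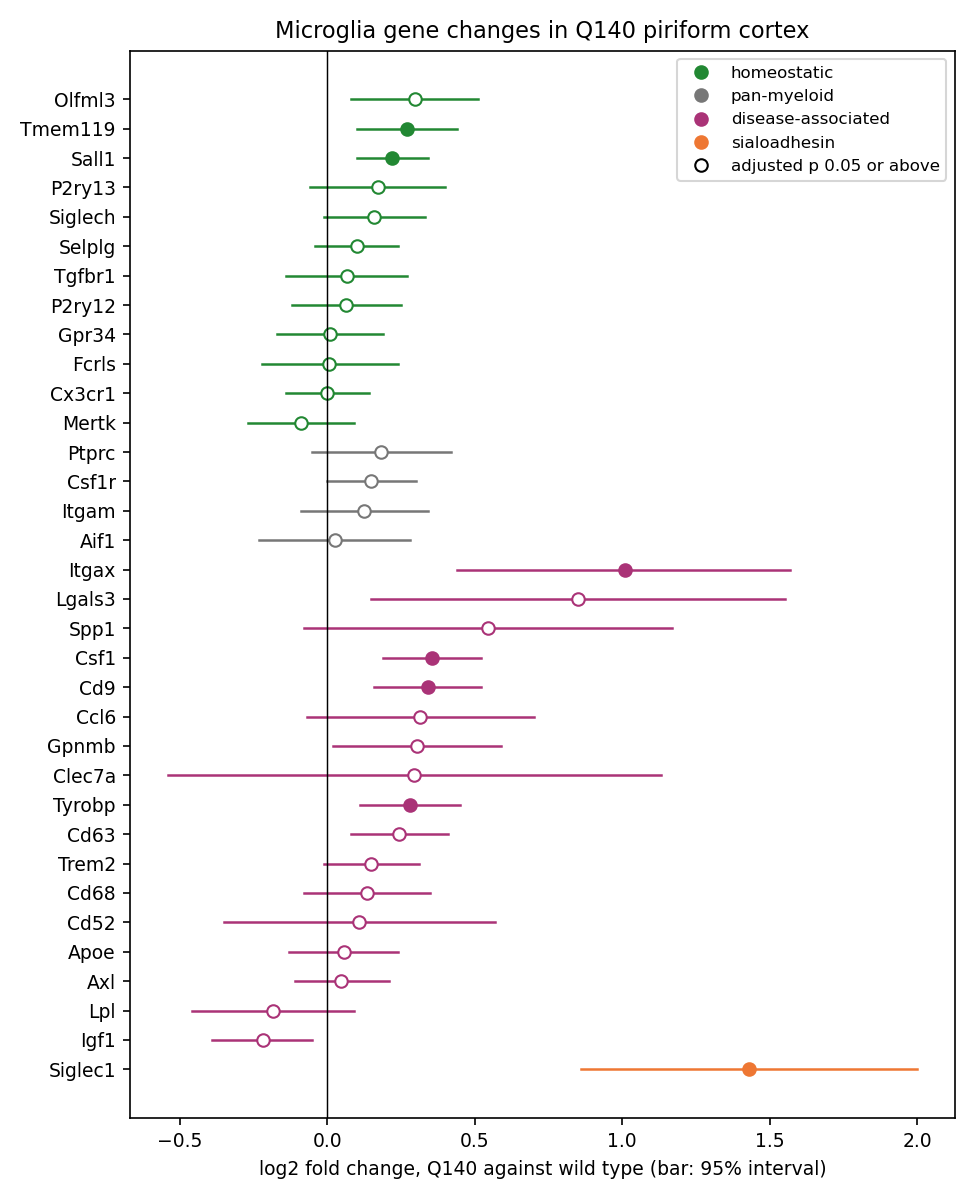
Log2 fold change of the 34 tested members, Q140 against wild type (x axis), with 95% intervals as bars, grouped by role and coloured by it; filled points have an adjusted p below 0.05. The 7 filled points are all to the right of 0, led by Siglec1 at 1.43 and Itgax at 1.01. P2ry12 and Cx3cr1 sit near 0. With the name prefix as a covariate none would be filled, and 134 of all 17725 genes passed in that fit.

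By GENCODE M21 on GRCm38, Siglec1 (ENSMUSG00000027322) occupies chr2:131069220-131086765 on the minus strand and Itgax (ENSMUSG00000030789) chr7:128129547-128150657 on the plus strand. Csf1 (ENSMUSG00000014599) lies at chr3:107741048-107760469 and Cd9 (ENSMUSG00000030342) at chr6:125460266-125494791, both on the minus strand. Tyrobp (ENSMUSG00000030579) lies at chr7:30413760-30417585 on the plus strand, Tmem119 (ENSMUSG00000054675) at chr5:113793729-113800516 and Sall1 (ENSMUSG00000031665) at chr8:89027235-89044162 on the minus strand. All 7 are protein-coding, and of them only Cd9 shares exon bases with another gene, Gm26728, on the opposite strand.

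Of the 12 homeostatic genes 2 rose, none fell and 10 did not pass the test, where 4.5% of all genes rose and 6.69% fell. The median log2 fold change of the 12 was 0.08. Tmem119, a membrane protein used as a microglia marker, ran from 18.1 to 22.3 CPM in wild types with a median of 19.0, and from 19.6 to 27.0 CPM in Q140 animals with a median of 23.5. The ranges overlapped, since the lowest Q140 animal lay below the highest wild types. Its log2 fold change was 0.27 (SE 0.0797, adjusted p = 0.0420).

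Sall1 ran from 30.1 to 35.2 CPM in wild types, median 31.9, and from 34.8 to 40.9 CPM in Q140 animals, median 36.7. Only wild type 4 reached into the Q140 range. Its log2 fold change was 0.22 (SE 0.0543, adjusted p = 0.0201).

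P2ry12, the purinergic receptor that guides microglial processes to injury, spanned 32.3 to 47.2 CPM in wild types with a median of 36.4, and 34.8 to 44.7 CPM in Q140 animals with a median of 39.9. The Q140 range lay inside the wild type range. The log2 fold change was 0.06 (SE 0.0856, adjusted p = 0.680), with a 95% interval of -0.12 to 0.25. Cx3cr1, the fractalkine receptor, was the closest to no difference, at 50.1 ± 5.82 and 50.0 ± 1.89 CPM (SD, n = 6 each), with a 95% interval of -0.14 to 0.14 around its log2 fold change.

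The other 8 homeostatic genes had log2 fold changes from -0.09 for Mertk, a receptor for the engulfment of dying cells, to 0.30 for Olfml3, a secreted protein. Olfml3 was nearest to the threshold, at 16.9 ± 2.51 CPM in wild types against 20.8 ± 2.53 CPM in Q140 animals with an adjusted p of 0.0705 in edgeR. It passed in DESeq2 (adjusted p = 0.0364), in limma voom (0.0182), with no expression filter, with library size only and with a surrogate variable, and its adjusted p was 0.420 with the name prefix. P2ry13, at 0.17, and Siglech, a lectin of microglia, at 0.16, had intervals that reached from -0.06 to 0.40 and from -0.01 to 0.33. Selplg, a ligand of selectins, had 0.10 and Tgfbr1 0.07. Gpr34, a lysophospholipid receptor on the X chromosome, and Fcrls, an Fc receptor-like protein, each had 0.01 and adjusted p-values of 0.958 and 0.980.

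Of the 4 genes shared by most myeloid cells none passed the test in edgeR, DESeq2 or limma voom. None had an unadjusted p below 0.05 in edgeR, 1 did in DESeq2 and 2 did in limma voom. In edgeR 26.7% of all genes did, and the shares for DESeq2 and limma voom are not given. All 4 had positive log2 fold changes, with a median of 0.14. Csf1r had 92.3 ± 9.42 CPM in wild types against 102.2 ± 8.43 CPM in Q140 animals, a log2 fold change of 0.15 (adjusted p = 0.193) with a 95% interval that ended at 0.30. Ptprc, the phosphatase CD45, had 0.18, Itgam 0.12 and Aif1, the actin-binding protein IBA1 used to stain microglia, 0.03. The main Itgam model shares 3450 exon bases with the other, which held 3 reads in Q140 animals and 0 in wild types, so reads may be split between them. Exons of Csf1r overlap Hmgxb3 on the opposite strand, and since the strand setting of the counting is not given in the sources used here, reads of the pair cannot be told apart. Exons of Cd52, Cx3cr1 and P2ry12 likewise overlap an opposite-strand gene (Crybg2, Gm33858 and Med12l), and those of Spp1 a gene on its own strand, Gm42793.

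Among the 20 disease-associated genes 17 were tested. Of these 4 rose, none fell and 13 did not pass, where 4.5% of all genes rose and 6.69% fell. The median log2 fold change of the 17 was 0.28. Itgax, the integrin chain CD11c, had 0.203 to 0.521 CPM in wild types with a median of 0.362, and 0.447 to 1.15 CPM in Q140 animals with a median of 0.687. The ranges overlapped in the zone between the lowest Q140 animals, numbers 5 and 6, and wild types 2 and 4. The log2 fold change was 1.01 (SE 0.262, adjusted p = 0.0257), a 2.01-fold increase at a level of 0.0734 ± 0.0254 FPKM (SD, n = 6; fragments per kilobase of gene, scaled to the library total) in wild types.

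Csf1, a growth factor for microglia that neurons, astrocytes and microglia can make, ran from 18.8 to 29.2 CPM in wild types, median 23.0, and from 26.6 to 37.0 CPM in Q140 animals, median 29.0. Here too wild type 4 alone reached the Q140 range. Its log2 fold change was 0.35 (SE 0.0754, adjusted p = 0.00913). Il34, the other ligand of Csf1r and made by neurons, had 61.7 ± 2.73 and 59.4 ± 3.50 CPM, with an adjusted p of 0.448.

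Cd9, a tetraspanin of the cell membrane, spanned 21.2 to 33.5 CPM in wild types with a median of 25.6, against 29.4 to 40.4 CPM in Q140 animals with a median of 31.6. Again wild type 4 lay within the Q140 range. The log2 fold change was 0.34 (SE 0.0847, adjusted p = 0.0200). Cd9 is also made by oligodendrocytes, and 4 of 10 oligodendrocyte markers rose, where 4.5% of all genes did. Among these markers Mog had 38.0 ± 5.61 against 58.0 ± 7.22 CPM. The part of oligodendrocytes in the Cd9 result was not tested. Cd63, another tetraspanin, of late endosomes, had a log2 fold change of 0.24 and missed the threshold in edgeR with an adjusted p of 0.0562. It passed in DESeq2 (adjusted p = 0.0288), in limma voom (0.0189), with no expression filter and with library size only, and its adjusted p was 0.572 with the name prefix.

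Tyrobp, the signalling adaptor of Trem2, spanned 8.89 to 10.8 CPM in wild types, median 9.55, and 10.0 to 13 CPM in Q140 animals, median 11.5. Wild type 4 was the only wild type above any Q140 animal. The log2 fold change was 0.28 (SE 0.0813, adjusted p = 0.0400). Trem2 itself had 11.8 ± 1.03 and 13 ± 1.1 CPM, a log2 fold change of 0.15 (adjusted p = 0.227) and a 95% interval of -0.01 to 0.31.

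The 13 tested genes that did not pass differed in size and sign. The galectin Lgals3, at 0.278 ± 0.149 and 0.503 ± 0.121 CPM, had the widest difference among them, a log2 fold change of 0.85 with an adjusted p of 0.112. Spp1, or osteopontin, had 2.00 to 16.2 CPM in wild types against 8.24 to 15.2 CPM in Q140 animals, and the lowest of all 12 values was that of wild type 3. Its log2 fold change of 0.55 had a 95% interval of -0.08 to 1.17. Gpnmb, a lysosomal glycoprotein, had 0.30 (adjusted p = 0.159), the chemokine Ccl6 0.31 (0.289) and the lectin receptor Clec7a, annotated as a polymorphic pseudogene in GENCODE M21, 0.29 (0.677).

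Apoe, which carries lipids and is made chiefly by astrocytes, had 1521 ± 164.5 and 1582 ± 227.0 CPM, a log2 fold change of 0.06 with a 95% interval of -0.13 to 0.24. Cd68, a lysosomal protein of phagocytes, had 0.13, Cd52 0.11 and the receptor tyrosine kinase Axl 0.05. The pair with negative values were Igf1, a growth factor, at -0.22 (adjusted p = 0.0965 in edgeR, 0.0362 in limma voom and 0.0319 with a surrogate variable), and Lpl, the lipoprotein lipase, at -0.18 (adjusted p = 0.385). Igf1 had 18.2 ± 1.3 CPM in wild types against 15.6 ± 1.92 CPM in Q140 animals, and it is made by neurons as well as microglia.

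The 3 remaining disease-associated genes were too low to be tested. Their reads are summed over the 6 animals of a group. Cst7, which encodes the protease inhibitor cystatin F, had 17 reads in wild types and 50 in Q140 animals, a ratio of 2.7 after scaling by library size, with a 95% binomial counting interval of 1.53 to 4.98. By animal it ran from 0 to 0.203 CPM in wild types, median 0.0976, and from 0.115 to 0.406 CPM in Q140 animals, median 0.256. The groups overlapped: Q140 animals 3, 5 and 6, the males, lay below the highest wild type. In a fit with no expression filter its log2 fold change was 1.37 with an adjusted p of 0.0683. Chemokine reads numbered 29 and 46 for Ccl3, ratio 1.45 (0.894 to 2.40), and 8 and 17 for Ccl4, ratio 1.95 (0.796 to 5.21). These intervals cover counting error only, and those of Ccl3 and Ccl4 include 1.

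Promoters were read from RefSeq on GRCm38.p6 for 28 of the symbols, with 36 windows of 300 bases that run from 250 bases before a gene's start to 50 after it. A pair of motifs was searched on both strands: GAGGAAGT, a form of the site of the myeloid factor PU.1, and GAAANNGAAA, a form of the interferon response element, where N is any base. Among all 32851 promoters 3.2% held the former and 3.44% the latter. Neither was found in the 6 windows of Itgax, Csf1, Cd9 and Sall1. Siglec1, Tyrobp and Tmem119, which also rose, had no promoter in the set and were not searched. The promoter of Csf1r was left out. Spp1 held both and Aif1 the latter. The 250 bases before the start are shown for Itgax and Csf1, which rose, and for the Spp1 start with both motifs, whose letters are in capitals. They lie at chr7:128129300-128129549 on the plus strand, chr3:107760470-107760719 on the minus strand and chr5:104434861-104435110 on the plus strand.
Itgax: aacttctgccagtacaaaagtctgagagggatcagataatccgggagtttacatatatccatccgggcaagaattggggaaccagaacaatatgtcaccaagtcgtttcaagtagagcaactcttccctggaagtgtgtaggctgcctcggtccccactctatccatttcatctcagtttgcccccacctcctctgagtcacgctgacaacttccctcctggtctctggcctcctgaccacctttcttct
Csf1: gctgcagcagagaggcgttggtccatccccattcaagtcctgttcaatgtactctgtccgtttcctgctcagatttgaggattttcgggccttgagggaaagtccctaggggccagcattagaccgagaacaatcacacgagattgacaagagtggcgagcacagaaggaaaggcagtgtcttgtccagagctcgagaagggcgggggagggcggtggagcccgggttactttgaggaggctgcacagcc
Spp1: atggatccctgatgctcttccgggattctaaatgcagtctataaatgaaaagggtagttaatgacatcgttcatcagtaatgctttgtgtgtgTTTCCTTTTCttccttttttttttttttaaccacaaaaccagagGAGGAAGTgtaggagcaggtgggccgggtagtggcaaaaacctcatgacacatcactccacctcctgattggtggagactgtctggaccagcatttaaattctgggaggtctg
In the Spp1 sequence the interferon motif is on the minus strand and begins at base 94, and the PU.1 motif is on the plus strand and begins at base 138. A match describes these letters only.

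Siglec1, a sialic acid receptor of border macrophages and of myeloid cells exposed to interferon, had the largest change of the members. Wild types spanned 0.368 to 0.860 CPM with a median of 0.505, and Q140 animals 0.862 to 2.24 CPM with a median of 1.31. It was the single member whose groups did not overlap, with every Q140 animal above every wild type, the nearest pair being 0.860 and 0.862 CPM. Of all genes 1.88% were separated in this direction and 2.7% in the other. The log2 fold change was 1.43 (SE 0.266, adjusted p = 0.00415).

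**Figure D2:**
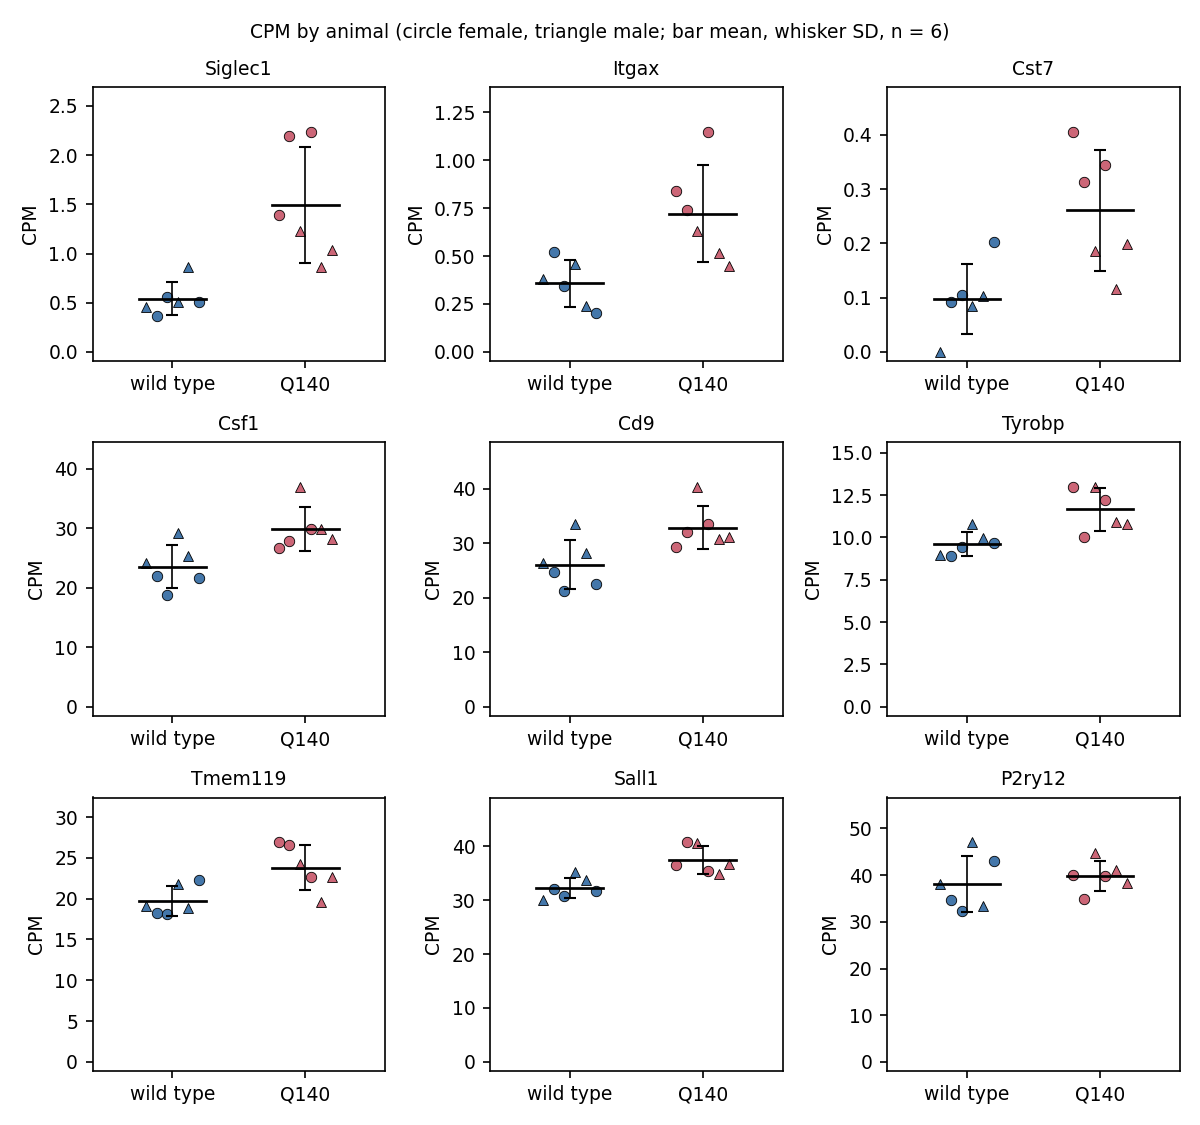
CPM (y axis) in each animal for the 7 members that rose and for Cst7 and P2ry12; circles are females, triangles males, the long bar is the mean and the whisker the SD (n = 6). Siglec1 ranges do not overlap (0.368 to 0.860 against 0.862 to 2.24), and P2ry12 ranges lie over each other.

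The homeostatic genes P2ry12 and Tmem119 were also set against the disease-associated genes Cst7 and Itgax within each library, which does not depend on library size. Wild types held 6.20 to 11.6 reads of Cst7 and Itgax per 1000 reads of P2ry12 and Tmem119, with a median of 7.25. Q140 animals held 10.4 to 23.9, with a median of 14.6. Wild type 2, at 11.6, lay above the Q140 animals at 10.4 and 10.6, and the other wild types lay below all Q140 animals. Read numbers of the low pair were 10 to 20 per wild type and 13 to 52 per Q140 animal, so counting error is a large share of each value. By sex the means were 8.91 ± 2.7 and 19.9 ± 3.53 for wild type and Q140 females and 7.03 ± 0.736 and 11 ± 0.814 for males (SD, n = 3 each). These ratios are a description, since Itgax and Tmem119 had both passed the test above.

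**Figure D3:**
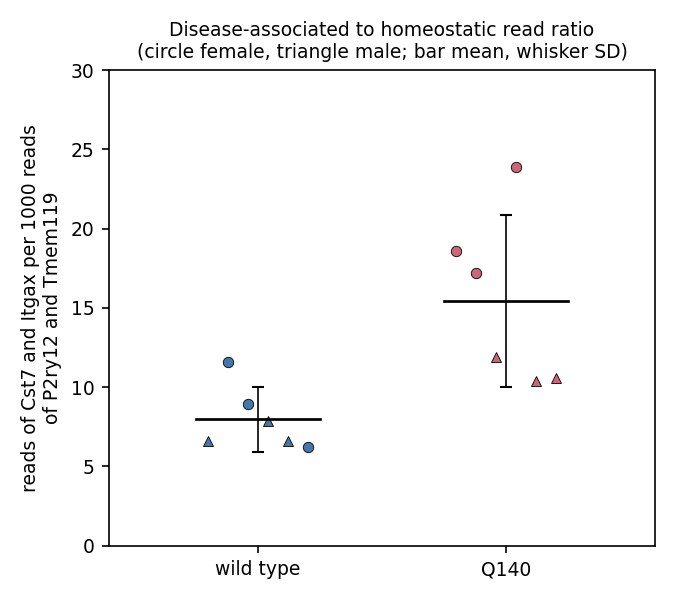
Reads of Cst7 and Itgax per 1000 reads of P2ry12 and Tmem119 (y axis) in each animal; circles are females, triangles males, the long bar the mean and the whisker the SD (n = 6). The 3 Q140 females, at 17.2 to 23.9, lie above all other animals.

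Per kilobase, the members of the wild type cortex ranged over a wide span. Apoe stood at 699.9 ± 79.3 FPKM (SD, n = 6), clear of Csf1r at 18.6 ± 1.88 FPKM. From Csf1r down through Cd63, Mertk, P2ry12, Tyrobp, Cx3cr1, Cd9 and Axl, at 12.5 ± 1.48 FPKM, each gene overlapped with the next. Trem2 had 2.34 ± 0.212 FPKM and Tmem119 8.37 ± 0.775 FPKM. Another gap in the order fell between Ccl6, at 0.657 ± 0.0843 FPKM, and Ptprc, at 0.263 ± 0.0487 FPKM. Lowest of those with reads in every wild type were Siglec1 at 0.0745 ± 0.0238 FPKM and Itgax at 0.0734 ± 0.0254 FPKM. Of the 37 steps between neighbours in the order, 34 had overlapping ranges, so the order within those runs was not resolved.

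In females 5 members rose and none fell, where 2.83% of all genes rose. Siglec1 had the widest rise, a log2 value of 2.03 with an SE of 0.295 and an adjusted p of 0.00261, from wild type values of 0.368 to 0.553 CPM to Q140 values of 1.39 to 2.24 CPM. Itgax had 1.33 (SE 0.338, adjusted p = 0.0327), Cd9 0.47 and Csf1 0.43 (both adjusted p = 0.0283), and Tmem119 0.38 (adjusted p = 0.0483). Wild type 3, with the low meningeal markers, is a female, and the meningeal list had a median log2 fold change of 0.92 in females and 0.19 in males; the border macrophage list had 1.08 and 0.18. The part of these cells in the female values was not tested. The count of 5 became 1 without wild type 3, 2 without wild type 6, 2 without Q140 animal 1, 1 without Q140 animal 2 and 2 without Q140 animal 4, fits with 2 animals in an arm. Calls over all genes in females, 1249 with all animals, became 433, 678, 622, 228 and 1180 in these fits.

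No member passed in males, where 1.4% of all genes did, in edgeR, DESeq2 or limma voom, and 6 had an unadjusted p below 0.05. Siglec1 had 0.76 (SE 0.313, adjusted p = 0.247) and Itgax 0.59 (SE 0.382, adjusted p = 0.480) in males. The difference between the sexes was tested itself: no member passed in edgeR, DESeq2 or limma voom, nor did any other gene in edgeR (0% of all genes; 25 in DESeq2 and 1 in limma voom), and 2 members, Siglec1 and Gpnmb, had an unadjusted p below 0.05. For Siglec1 the male minus female difference was -1.27 with a 95% interval of -2.21 to -0.33 and an adjusted p of 0.471, which missed the threshold. For Itgax the interval was -1.85 to 0.38. The shares of all genes with an unadjusted p below 0.05 are not given for males or for the sex difference. The counts of 6 and 2 members are therefore description only.

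**Figure D4:**
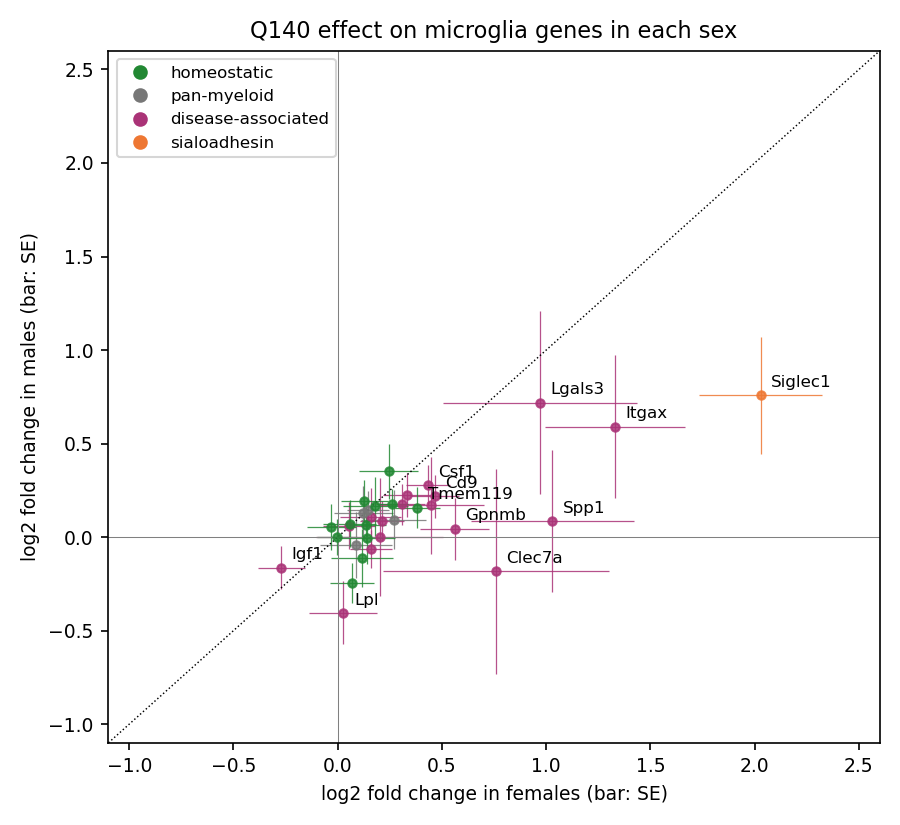
Log2 fold change, Q140 against wild type, in females (x axis) and in males (y axis) for the 34 tested members, with SE bars and colours by role; the dotted line marks equal effects. Siglec1 lies at 2.03 and 0.76 and Itgax at 1.33 and 0.59, below the line, and most homeostatic genes cluster near 0 on both axes.

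Between males and females across both genotypes no member passed in edgeR, DESeq2 or limma voom, against 0.654% of all genes, and 4 had an unadjusted p below 0.05. These 4 were Csf1 at a log2 difference of 0.25 and Cd9 at 0.23, higher in males, and Fcrls at -0.26 and Gpr34 at -0.19. Their adjusted p-values ran from 0.172 for Csf1 to 0.344 for Gpr34. The share of all genes with an unadjusted p below 0.05 is not given for this comparison, so the 4 are description only.

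Of 25 further genes of microglial identity 2 rose and none fell, with a median log2 fold change of 0.15, where 4.5% of all genes rose. Calls in this list and in those that follow were not counted with the name prefix or the animal number. In those fits 134 and 1 of all genes passed. Ctss, the lysosomal protease cathepsin S, had 65.3 ± 4.5 CPM in wild types against 79.4 ± 5.96 CPM in Q140 animals (log2 fold change 0.28, adjusted p = 0.00766). Ly86, a partner of a Toll-like receptor homologue, had 8.77 ± 0.727 and 11 ± 1.26 CPM (0.32, adjusted p = 0.0272).

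Among 25 further tested genes of the disease-associated state 7 rose and none fell, where 4.5% of all genes rose. Timp2, an inhibitor of metalloproteases, had 270.3 ± 13.3 and 329.3 ± 11.3 CPM, a log2 fold change of 0.28 (adjusted p = 0.000904). The class I histocompatibility genes H2-D1 and H2-K1 rose by 0.47 and 0.36 on the log2 scale, and Grn, the lysosomal protein progranulin, by 0.19. These genes are expressed by other brain cells as well. Of 13 tested genes that carry the Trem2 signal inside the cell none passed in edgeR, DESeq2 or limma voom. In edgeR 1 of them had an unadjusted p below 0.05, where 26.7% of all genes did.

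Ligands and checkpoints that act on microglia changed in both directions. Cx3cl1, the fractalkine that neurons present to Cx3cr1, fell from 681.1 ± 45.8 to 565.4 ± 42.2 CPM (log2 fold change -0.27, adjusted p = 0.000495), while its receptor had the value near 0 given above. Sirpa, the receptor for the checkpoint protein Cd47, fell by 0.21 on the log2 scale and Smad3, a transducer of TGF-beta, by 0.34. Tgfb2, a TGF-beta ligand, rose by 0.30 (adjusted p = 0.00675). Of the 16 tested genes of the list 1 rose, 4 fell and 11 did not pass, the other gene that fell being Itgav. Among all genes 4.5% rose and 6.69% fell. Neuronal markers fell too, 4 of 8, among them Snap25 at -0.35. The part of neurons in the fall of Cx3cl1 and Sirpa was not tested.

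Of 18 tested interferon-response genes 11 rose and none fell, where 4.5% of all genes rose and 6.69% fell. The median log2 fold change of the 18 was 0.64. Xaf1 had 5.47 ± 0.605 and 7.73 ± 1.12 CPM (0.50, adjusted p = 0.00942), Bst2, which tethers budding viruses, 0.80, Oas1a, a sensor of double-stranded RNA, 0.81 and Rtp4 0.58. Of 13 tested inflammatory genes none rose in edgeR, none in DESeq2 and 1 in limma voom. In edgeR 4 had an unadjusted p below 0.05, among them Ptgs2, which fell, where 26.7% of all genes did. The prostaglandin synthase Ptgs2 fell by 0.61 on the log2 scale (adjusted p = 0.0197), and the cytokine Il1b had 0.321 ± 0.130 and 0.316 ± 0.121 CPM.

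Markers of other macrophages and of meninges stood higher in Q140 animals in sign. All 12 border macrophage genes, which mark the macrophages of vessels and meninges, had a positive log2 fold change with a median of 0.58. None passed in edgeR, and 2 passed in DESeq2 and 3 in limma voom. In edgeR 4 of the 12 had an unadjusted p below 0.05, where 26.7% of all genes did. In DESeq2 4 of the 12 did and in limma voom 7. Their summed level ran from 22.7 to 69.9 CPM in wild types, against 43.8 to 79.2 CPM in Q140 animals, and none of the 12 was at 0 in all animals. All 15 meningeal genes were positive too, with a median of 0.56, and none passed in edgeR, DESeq2 or limma voom. None of the 15 had an unadjusted p below 0.05 in edgeR or DESeq2, and 6 did in limma voom. The shares of all genes with such a p are not given for DESeq2 and limma voom. Of 13 blood leukocyte markers only Cd79a was high enough to be tested, and it did not pass; the summed level of the list was 0.726 to 2.18 CPM in wild types against 0.398 to 2.15 CPM in Q140 animals. None of 5 red blood cell markers or of 4 tested choroid and ependymal markers passed in edgeR, DESeq2 or limma voom, or had an unadjusted p below 0.05. Endothelial cells had 1 of 8 markers higher, Ly6c1 at 0.33, and astrocytes 1 of 10 lower, Slc1a2 at -0.31. Of all genes 4.5% were higher and 6.69% lower.

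**Figure D5:**
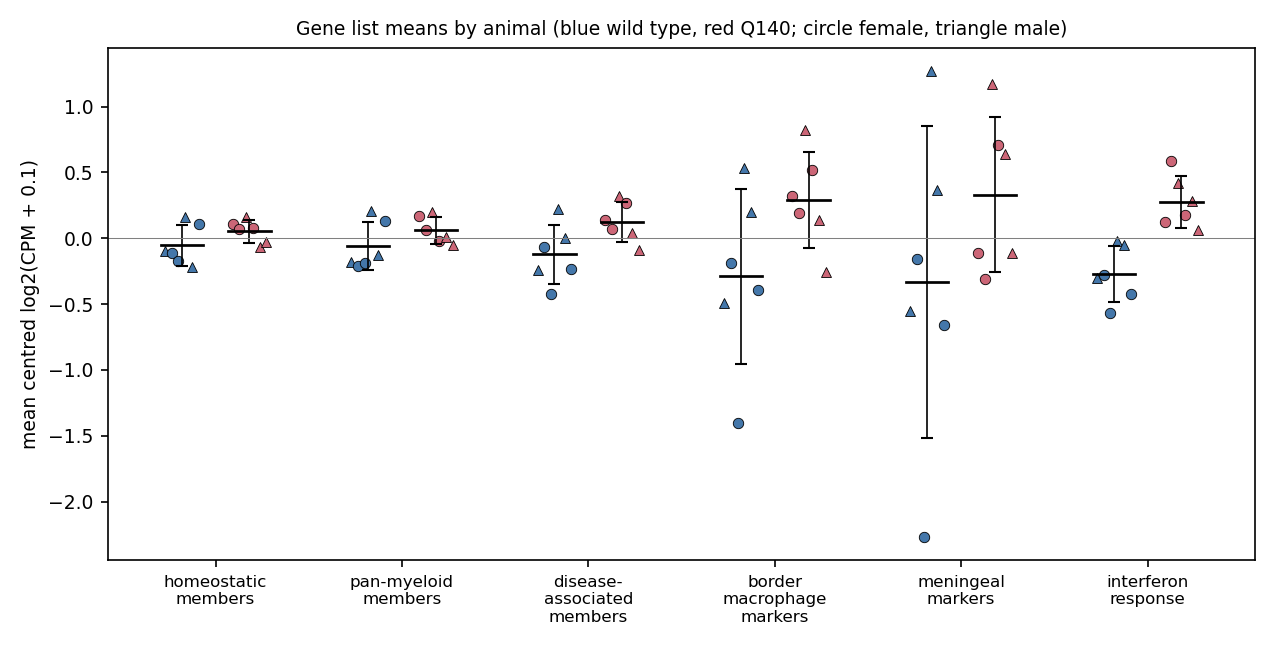
Mean of the centred log2(CPM + 0.1) values of 6 gene lists (y axis) in each animal, wild type in blue and Q140 in red; circles are females, triangles males, long bars means and whiskers SD (n = 6). Wild type 3 is the lowest point of the meningeal list (-2.27) and of the border macrophage list (-1.40), and the homeostatic members lie between -0.22 and 0.16.

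With the mean of the border macrophage list as a covariate the 7 calls became 0 higher and 1 lower, Lpl at -0.42 (adjusted p = 0.0368), and with the mean of the meningeal list they became 2, Siglec1 and Csf1. Siglec1 had a log2 fold change of 1.19 (adjusted p = 0.0540) beside the border macrophage list, and Csf1 0.21 (0.0540), Itgax 0.70 (0.237), Tmem119 0.19 (0.262), Tyrobp 0.19 (0.266), Sall1 0.16 (0.164) and Cd9 0.18 (0.144). All 7 stayed positive. Over all genes the calls fell from 1982 to 659 with the border macrophage list and to 1047 with the meningeal list. The part of these cells in the results was not tested beyond these fits.

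The animal names carry prefixes whose meaning the labels do not give. RFckQ names 4 wild types and Q140 animal 4, RFQ names wild type 4 and 3 Q140 animals, wild type 6 alone has FMQ, and Q140 animals 1 and 2 have none. Those 2 are females that share neither prefix nor number with any wild type, so for them name and genotype cannot be told apart, and this bears on the 5 female calls and on the read ratio of the Q140 females. Within RFckQ the Q140 animal was above all 4 wild types in 26 of 34 tested members, against 28.0% of all genes, and above their mean in 30, against 51.0% of all genes. Members of 1 library are not replicates, and these counts rest on 1 Q140 animal. Within RFQ the mean of the Q140 animals was above wild type 4 in 11 of 34 members, against 49.7% of all genes, and all 3 were above it in 2 members, against 27.2% of all genes. The 2 were Siglec1 (0.862 to 1.23 against 0.502 CPM) and Tyrobp. For Itgax the RFQ animals had 0.447 to 0.633 CPM against 0.460 CPM. With the prefix as a covariate no member passed in edgeR, 4 had an unadjusted p below 0.05 and 134 genes passed in all. Siglec1 then had 1.80 (adjusted p = 0.0506). With the number in the animal's name as a block no member and 1 gene passed, and 4 members had an unadjusted p below 0.05. Only 150, with 1 animal of each genotype, and 161, with 1 wild type and 2 Q140 animals, are numbers shared by both genotypes. The Q140 effect in the fit with the number therefore rests on these 5 animals. Shares of all genes with an unadjusted p below 0.05 are not given for the fits with the prefix and the number. Both counts of 4 members are therefore description only. Within 150, whose wild type is number 3 with the low meningeal markers, the Q140 animal was higher in 31 of 34 members, against 50.5% of all genes. This sets 1 animal against 1, and the members are not replicates here either. Within 161 the Q140 animals had the higher mean in 13 of 34 members, against 49.1% of all genes, and both were above the wild type in 5, against 32.1% of all genes. Wild type 4 is the only wild type of RFQ and of 161. It had the highest summed meningeal and border macrophage levels of the wild types, 2228 and 69.9 CPM. The part of this in the RFQ and 161 counts was not tested.

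Single animals moved the calls over all genes, which numbered 1982 with all animals. They numbered 1197 without wild type 1, 1231 without wild type 3 and 2136 without wild type 4. Without Q140 animal 3 they numbered 1314, and without Q140 animal 5 they numbered 2504. The count of 7 members moved in both directions too. It was 3 without wild type 1, 2 without wild type 3, 11 without wild type 4, 4 without wild type 5, 4 without Q140 animal 2, 2 without Q140 animal 3 and 11, 1 of them lower, without Q140 animal 5. Siglec1 and Csf1 passed in all 12 fits that left out 1 animal, with log2 fold changes of 1.27 to 1.68 and 0.31 to 0.40. Itgax, Cd9 and Sall1 passed in 8 of the 12 and Tmem119 and Tyrobp in 4, all with positive values. Igf1, not called with all animals, fell by 0.29 (adjusted p = 0.00923) without Q140 animal 5.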

How the data were processed

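RNA-seq of piriform cortex from 12 mice was used, 6 of each genotype. RNA extraction used a Qiagen RNeasy kit and library preparation the Illumina TruSeq stranded method, per the labels' protocols. STAR 2.7.5c, HTSeq 0.12.3 and SAMtools 1.10 are named in the submitters' processing notes, beside GRCm38 and mm10 as builds. The sources used here do not give the annotation release or the strand setting. The authors deposited whole-number read counts per gene, not normalized, and a table of FPKM, which follows from the counts, column totals and gene lengths. FPKM was used only to order levels between genes.

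Counts were tested with edgeR 4.0.16 (R 4.3.3): TMM, its default expression filter by genotype, the quasi-likelihood test with sex as a covariate, and Benjamini-Hochberg adjustment over 17725 genes, two-sided, threshold 0.05. Effects within each sex and their difference were contrasts between 4 group means, 1 per genotype and sex. The standard error is the log2 fold change over the root of F. Alternatives were other size factors, no filter, DESeq2 1.42.0, voom with quality weights in limma 3.58.1, sva 3.50.0, covariates, offsets for length and GC content, and each animal left out. The fits were tested on simulated data. Annotation was GENCODE M21 (GRCm38), which matched 48435 of 48795 identifiers.

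Depth was 19587208 to 35198602 counts per library, and a count of 0 allows up to 3 counts. The members and lists were chosen with earlier results of these data known. Values by animal are given for members that passed in any comparison and for P2ry12, Tmem119, Cst7 and Itgax; from other lists, up to 4 genes that passed are named by smallest p. Il34, Il1b and Cd79a were named outside that rule, with Itgav, after their values were seen. Prefixes and numbers of animal names were used as given, with no stated meaning.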

Additional observations from a re-analysis of the deposited data

Results flagged for a closer look

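The 34 tested members in each genotype gave 68 groups of 6 animals. In 6 of these groups 1 animal was set apart from the others by more than Dixon's critical value at 95%. The nominal rate of about 1 in 20 holds for independent groups with normal values, and these groups share their animals. The share over all genes is not given, so the 6 are description only. Q140 animal 3 was highest and apart for Apoe at 2037.5 CPM (next 1542.5), Csf1 at 37.0 CPM (next 29.9) and Cd9 at 40.4 CPM (next 33.5). This animal also had the highest summed meningeal level, 2660 CPM. Wild type 4 was apart for Cd63 at 22.1 CPM (next 18.5) and P2ry13 at 14.7 CPM (next 10.8), and it had the highest summed meningeal level of the wild types, 2228 CPM. Q140 animal 2 was apart for Cd52 at 1.93 CPM (next 1.23). The part of meningeal tissue in these values was not tested.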

How the results depend on the processing

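The count of 7 members higher in Q140 animals was 7 with median-of-ratios size factors, 9 with library size only, no expression filter or DESeq2, 9 with limma voom and 7 with a surrogate variable (10 and 8 calls with Igf1, which was lower), 6 without the sex covariate or with length and GC offsets, and 5 with the well column. It became 0 with the name prefix or the animal number, 2 with the meningeal list and 0, beside 1 call lower (Lpl), with the border macrophage list as a covariate. Over all genes, calls in both directions numbered 1982 in the main fit, 1985 with median-of-ratios factors and 2446 with library size only. They numbered 2060 with no filter, 2466 in DESeq2, 2497 in limma voom and 1843 with a surrogate variable. Without the sex covariate they numbered 1735, with length and GC offsets 1949 and with the well column 1617. They fell to 134 (name prefix), 1 (animal number), 1047 (meningeal list) and 659 (border macrophage list). Member calls in both directions numbered 2 to 11 when each animal was left out in turn, where those over all genes numbered 1139 to 2504. With library size only, 66.4% of all calls were higher against 40.2% with TMM. The count in females, 5, became 8 with no filter, 9 with limma voom and 1 to 7 with an animal left out. Calls over all genes in females, 1249 in the main fit, became 1623, 2716 and 228 to 1426 in these fits. The counts for males, for the difference between the sexes and for males against females stayed at 0 in all settings run.

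The members that changed sign had all missed the threshold, and the cause was not tested. With the name prefix, log2 fold changes were -0.12 for Cd52, -0.079 for Axl, -0.10 for Fcrls, -0.19 for Aif1, -0.0493 for P2ry13 and -0.00523 for Gpr34. With the animal number they were -0.014 for Cd52, -0.0221 for Axl, 0.00667 for Lpl, -0.14 for Fcrls and -0.23 for Aif1. With the meningeal list they were -0.0208 for Cd52, -0.0294 for Axl, -0.0436 for Apoe, -0.0151 for Tgfbr1, -0.097 for Fcrls, -0.00773 for Aif1, -0.0159 for P2ry12, -0.0463 for Gpr34 and -0.0736 for Clec7a. With the border macrophage list they were -0.083 for Cd52, -0.0861 for Axl, -0.0905 for Apoe, -0.0394 for Tgfbr1, -0.14 for Fcrls, -0.0379 for Cd68, -0.0432 for Aif1, -0.0472 for Spp1, -0.0324 for P2ry12, -0.0521 for Gpr34 and -0.21 for Clec7a. Length and GC offsets gave -0.0114 for Fcrls, -0.00735 for Aif1 and -0.00196 for Gpr34, and the well column -0.00483 for Gpr34 and 0.00802 for Cx3cr1. Cx3cr1 was 0.046 with library size only, 0.00603 with no filter, 0.0382 with limma voom and 0.0133 with a surrogate variable. Leaving out an animal gave -0.0865 to 0.22 for Cd52, -0.0239 to 0.0994 for Apoe, -0.0363 to 0.11 for Fcrls, -0.0404 to 0.10 for Aif1, -0.0463 to 0.0443 for Gpr34 and -0.046 to 0.0452 for Cx3cr1.

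The numbers in the animals' names join 5 animals across the genotypes, with no stated meaning, and the fit with them as a block is the one given here for the animal number. Depth limited Cst7, Ccl3 and Ccl4, which had too few reads to be tested.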
